A study of Mus musculus with 7 samples.

Results

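A set of 4 genes of the hyperpolarization-activated current was followed in RNA of the mouse hippocampus: the channel genes Hcn2, Hcn3 and Hcn4, and Pex5l, which encodes the channel partner TRIP8b. The rule that picks them uses gene symbols only, though it was set with earlier results of these data known, and all 4 were found among the 39017 Ensembl gene IDs of the count table. The mice carried Cre recombinase under Gad2 (GAD2 cre+) and a Cre-dependent L10-EGFP, a green fluorescent tag on a protein of the large ribosomal subunit. In translating ribosome affinity purification (TRAP), tagged ribosomes are pulled down together with the RNA they carry. The 3 bound libraries hold the RNA pulled down from a pool of 2 hippocampi each, and their titles start with GAD_ctrl. The 4 unbound libraries hold RNA that stayed behind. Their titles form 2 series, UBS (unbound replicates 1 and 2) and UBGS (unbound replicates 3 and 4), which the labels do not explain. All mice carried the same Cre driver and tag, and Cre acts in every cell in which Gad2 has been active, so the bound RNA mixes all classes of GABAergic cell. The labels give no age, sex, strain or pairing. Nothing in them says that the libraries of a group came from separate animals, so the p-values compare libraries, whose scatter may be technical only.

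HCN channels are cation channels that open when the membrane becomes more negative. Their inward current, called Ih, pulls the membrane back towards threshold, sets the resting potential and supports rhythmic firing, and cAMP binding to the channel's intracellular end makes opening easier in HCN2 and HCN4 and has little effect in HCN3. HCN4 is best known as the pacemaker channel of the heart, and HCN2 is widespread in the brain. TRIP8b binds the carboxyl end of HCN channels, governs how many reach the cell surface and where, and competes with the effect of cAMP. In the hippocampus it is known from pyramidal neurons, where it takes part in placing HCN channels in distal dendrites, and from oligodendrocytes.

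The 3 channel genes are similar enough that shared reads had to be checked before their counts were compared. On mm10, Hcn2 (ENSMUSG00000020331) lies on chromosome 10 from 79716634 to 79736108 on the plus strand. Hcn3 (ENSMUSG00000028051) lies on chromosome 3 from 89146074 to 89160196 on the minus strand, and Hcn4 (ENSMUSG00000032338) on chromosome 9 from 58823412 to 58863175 on the plus strand. Pex5l (ENSMUSG00000027674) spans chromosome 3 from 32949408 to 33143247 on the minus strand. All 4 are protein-coding, and each count covers all annotated exons of the gene, untranslated regions included. Aligned coding sequences were 71.7% identical between Hcn2 and Hcn3, 72.8% between Hcn2 and Hcn4 and 72.7% between Hcn3 and Hcn4. The longest identical stretches were 33, 32 and 32 bases. The most alike stretch of 60 coding bases without gaps lay in the fourth of 8 coding exons in each gene, with 51 bases the same in all 3. It is shown 5′ to 3′ from the GENCODE M21 transcripts because it is where the genes are hardest to tell apart, with capitals at the positions that differ:
Hcn2, chr10:79728990-79729049, plus strand: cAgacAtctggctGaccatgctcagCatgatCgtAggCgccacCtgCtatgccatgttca
Hcn3, chr3:89150924-89150983, minus strand: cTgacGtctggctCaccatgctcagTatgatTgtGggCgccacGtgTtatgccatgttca
Hcn4, chr9:58855622-58855681, plus strand: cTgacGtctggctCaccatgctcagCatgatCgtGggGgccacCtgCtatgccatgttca

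No stretch of 50 bases was shared among Hcn2, Hcn3, Hcn4 and Pex5l in any annotated transcript. Hcn2 and Hcn4 shared none with any other gene either, and their exons overlapped no other gene. Hcn3 shared 15.8% of its 50-base stretches with Pklr, which encodes the pyruvate kinase of liver and red blood cells and runs on the opposite strand, overlapping 17.1% of the exon length of Hcn3. Pklr had 47, 51 and 55 counts in bound replicates 1 to 3, where Hcn3 had 1908, 1944 and 1665. In unbound replicates 1 to 4 Pklr had 5, 14, 9 and 6 counts, where Hcn3 had 154, 216, 272 and 232. Pex5l overlapped the antisense gene 4930419G24Rik over 0.27% of its exons (log2 fold change of that gene −1.10, SE 0.21) and another antisense gene, Gm37459, over 3.84%. The use of strand in counting is not given in the sources used here, so reads from these overlaps cannot be assigned.

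RefSeq promoter sequences (GRCm38.p6, 250 bases before to 50 after the start) matched 2 of the 4 genes, Hcn2 and Hcn4. The Hcn2 window holds the gene start given above. The Hcn4 window ends at 58822998, upstream of the gene start of 58823412 given above, so it lies wholly outside the gene as counted here. The sequences are those of the members that had an entry, and Hcn3, like them higher in the bound libraries, had none. Both are rich in G and C, at 72.3% and 71.7% against a median of 52.7% over all promoters of that length. Capitals mark the letters GGGCGG on either strand, a GC box of the kind that Sp-family factors bind:
Hcn2, chr10:79716384-79716683, plus strand: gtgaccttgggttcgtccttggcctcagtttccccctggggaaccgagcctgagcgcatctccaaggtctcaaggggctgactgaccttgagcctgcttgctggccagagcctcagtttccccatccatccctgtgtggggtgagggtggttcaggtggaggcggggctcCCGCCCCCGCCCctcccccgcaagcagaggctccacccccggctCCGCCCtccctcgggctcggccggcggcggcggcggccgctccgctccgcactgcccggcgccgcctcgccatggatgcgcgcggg
Hcn4, chr9:58822699-58822998, plus strand: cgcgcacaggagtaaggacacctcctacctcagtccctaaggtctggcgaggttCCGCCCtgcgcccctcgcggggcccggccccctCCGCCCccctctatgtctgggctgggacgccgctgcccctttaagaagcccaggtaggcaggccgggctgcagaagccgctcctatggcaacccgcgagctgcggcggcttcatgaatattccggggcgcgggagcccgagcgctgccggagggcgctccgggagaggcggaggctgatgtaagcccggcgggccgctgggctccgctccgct

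GGGCGG occurred 3 times in the Hcn2 window and 2 times in the Hcn4 window, and 35.7% of all 32851 promoters held it at least once. The homeodomain core TAATTA (5.3% of all promoters) and the cAMP response element TGACGTCA (1.8%) were in neither window. The E-box CANNTG (72.3%) occurred 1 time in the Hcn2 window and was not in that of Hcn4. These are matches of letters, with both strands searched and overlaps between motifs allowed.

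Library totals ran from 38690380 to 51953811 counts. The pull-down was checked on Gad2, at 722 to 758 CPM (counts per 1000000 counts of the TMM-scaled library size) in bound and 112 to 190 CPM in unbound libraries, and on Slc17a7, the vesicular glutamate transporter of excitatory neurons, at 12.9 to 17.5 against 487 to 525 CPM. Of the marker lists, all 15 GABAergic genes were higher in bound libraries, and all 15 excitatory neuron, all 10 oligodendrocyte, 9 of 10 astrocyte, 6 of 7 oligodendrocyte precursor, 8 of 10 endothelial and mural, and 8 of 10 choroid plexus, ependymal and meningeal genes were lower (edgeR quasi-likelihood test, Benjamini-Hochberg adjusted p under 0.05 over 19563 genes). All 12 microglia genes were higher, with a summed level of 284 to 797 CPM in bound libraries, highest in bound replicate 2, and of 90.1 to 135 CPM in unbound libraries. In this test 31% of all genes were called higher and 30.7% lower. In 31.7% every bound library lay above every unbound one, and in 31.6% every bound library lay below.

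The channel genes and their partner moved in opposite directions. All 3 channel genes were higher in the RNA of tagged ribosomes, Hcn3 and Hcn4 by more than Hcn2, and Pex5l was lower. With about 3 in 10 genes called in each direction, the calls themselves are common in this comparison, and the sizes are what set the genes apart from one another. In bulk RNA, a difference in the number of cells and one in the amount of RNA per cell cannot be told apart. Nor can either be told apart here from a difference in how much of an RNA was carried by ribosomes. Only the bound libraries were obtained by pulling down ribosomes.

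Hcn2 stood at 17.1, 13.8 and 19.3 CPM in bound replicates 1 to 3 and at 7.49, 9.56, 8.52 and 7.60 CPM in unbound replicates 1 to 4. Every bound library was above every unbound one, with the smallest gap between bound replicate 2 and unbound replicate 2. With means of 16.7 ± 2.75 CPM (SD, n = 3) and 8.29 ± 0.961 CPM (SD, n = 4), Hcn2 was 2.01-fold higher in bound libraries (log2 fold change 1.01 with an SE of 0.15, edgeR adjusted p = 0.000129). Over all genes tested, 15.8% had a higher log2 fold change than Hcn2.

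Hcn3, whose channel responds least to cAMP, stood at 32.7, 31.1 and 37.8 CPM in bound and at 4.52, 5.05, 6.39 and 5.73 CPM in unbound libraries. The groups lay far apart, and the lowest bound library was above the highest unbound one several times over. The means were 33.8 ± 3.48 and 5.42 ± 0.811 CPM, which made Hcn3 6.23-fold higher (log2 fold change 2.64 with an SE of 0.14, edgeR adjusted p = 4.92e-08), and 2.73% of genes tested had a higher log2 fold change.

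Hcn4 was the scarcest of the channel genes and had the highest fold change. Its counts were 450, 438 and 270 in bound and 30, 27, 48 and 45 in unbound libraries, so that counting error adds more to its spread than to that of the other members. These correspond to 7.70, 7.01 and 6.12 CPM in bound and 0.881, 0.631, 1.13 and 1.11 CPM in unbound libraries. No libraries overlapped between the groups, and the difference was 7.39-fold (6.94 ± 0.792 against 0.938 ± 0.233 CPM, log2 2.89, SE 0.24, edgeR adjusted p = 1.85e-06). Of all genes tested, 2.31% had a higher log2 fold change.

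Pex5l went the other way. It stood at 34.0, 23.9 and 28.5 CPM in bound and at 142.8, 144.8, 153.8 and 153.1 CPM in unbound libraries. The unbound libraries were close to one another, and the bound libraries varied more in proportion, with bound replicate 1 highest and bound replicate 2 lowest. The means were 28.8 ± 5.07 and 148.6 ± 5.65 CPM, so that Pex5l was 5.16-fold lower (log2 −2.37, SE 0.11, edgeR adjusted p = 2.83e-08), and 7.09% of genes tested had a lower log2 fold change. Markers of excitatory neurons and oligodendrocytes, in which TRIP8b is known, were lower too. The excitatory markers summed to 1196 to 1485 CPM in bound and 5995 to 7875 CPM in unbound libraries. The oligodendrocyte markers summed to 352 to 439 and 1304 to 1504 CPM. None of these markers was at 0 in all bound libraries. Their median log2 fold changes were −4.89 (excitatory) and −1.88 (oligodendrocyte). Lower levels were not particular to these 2 lists. Medians were −2.93 for astrocyte, −2.71 for oligodendrocyte precursor, −3.11 for endothelial and mural, and −4.67 for choroid plexus, ependymal and meningeal markers. The GABAergic and microglia lists went the other way (3.52 and 2.34). The part of any of these cells in the level of Pex5l was not tested.

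**Figure D1:**
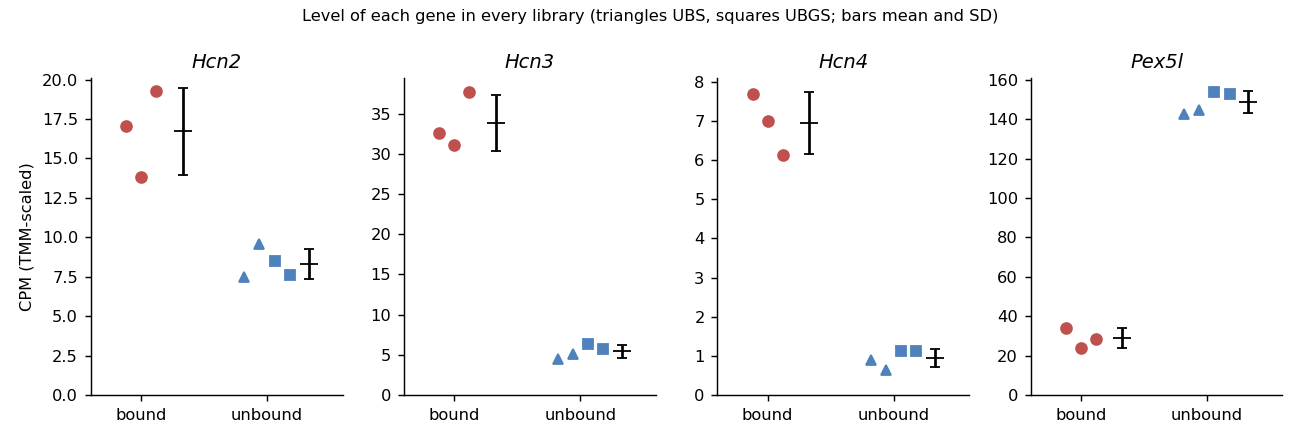
Level of each gene in CPM on TMM-scaled library sizes (y axis, a scale of its own in each panel, starting at 0) in the 3 bound (red circles) and 4 unbound libraries (blue, triangles for UBS and squares for UBGS), with the mean and SD in black. Every bound library lies above every unbound library for Hcn2, Hcn3 and Hcn4, and below for Pex5l.

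Bound replicate 2, the library with the highest summed microglia markers, was the lowest bound library for Hcn2, Hcn3 and Pex5l. For Hcn4 the lowest was bound replicate 3. Without bound replicate 2 the log2 fold changes were 1.13 for Hcn2, 2.70 for Hcn3, 2.88 for Hcn4 and −2.24 for Pex5l, all still past the threshold. In the remaining bound libraries the summed microglia markers still lay above all unbound libraries (at least 284 against at most 135 CPM). The part of microglia in the levels of the members was not tested.

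The channel genes did not all change by the same amount. For each of the 6 pairs of genes, the log2 ratio of their levels was taken in each library and compared between the groups with a two-sided exact permutation test over the 35 ways to divide the libraries, whose smallest possible p is 0.0286. From unbound to bound libraries, the log2 ratio of Hcn2 to Hcn3 fell by 1.64 and that of Hcn2 to Hcn4 fell by 1.91 (permutation p = 0.0286 each, 0.0343 adjusted over 6 pairs). The change of Hcn3 was not told apart from that of Hcn4: their log2 ratio was 2.29 ± 0.29 in bound (SD, n = 3) and 2.56 ± 0.30 in unbound libraries (SD, n = 4; exact permutation p = 0.286, also after adjustment), a difference of −0.27. The change of Pex5l differed from that of each channel gene by 3.39 (Hcn2), 5.03 (Hcn3) and 5.30 (Hcn4) log2 units, with a permutation p of 0.0286 each and 0.0343 after adjustment. The unadjusted p of these pairs with Pex5l was fixed by the levels given above. Every bound library lay above every unbound one for the channel genes and below for Pex5l, so these tests add no further evidence.

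Levels of the members were set side by side after division by merged exon length, as CPM per kilobase. In unbound libraries Pex5l ranked first (16.8 ± 0.638), then Hcn2 (2.60 ± 0.301), Hcn3 (1.31 ± 0.195) and Hcn4 (0.153 ± 0.0381 CPM per kilobase, SD, n = 4). In bound libraries Hcn3 ranked first (8.15 ± 0.837), then Hcn2 (5.23 ± 0.860), Pex5l (3.26 ± 0.573) and Hcn4 (1.14 ± 0.129 CPM per kilobase, SD, n = 3). Neighbours in either order had no library values in common. Divided by coding length instead, the order of the channel genes was the same, but Pex5l (12.3 to 17.5 CPM per kilobase) and Hcn3 (13.3 to 16.2) then overlapped in bound libraries.

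Of the 3 channel transcripts, Hcn2 was the most abundant per length in unbound and Hcn3 in bound libraries. Of the summed level of Hcn2, Hcn3 and Hcn4, Hcn2 made up 65.5%, 69.4%, 60.8% and 60.4% in unbound replicates 1 to 4 and 37.0%, 33.4% and 37.4% in bound replicates 1 to 3. Hcn3 made up 30.4%, 28.2%, 35.03% and 34.99% in unbound and 54.3%, 57.8% and 56.4% in bound libraries. Hcn4 remained the smallest part, at 4.03%, 2.39%, 4.20% and 4.61% in unbound and 8.70%, 8.84% and 6.21% in bound libraries. The groups did not overlap for any of the 3 shares (exact permutation p = 0.0286 for each, also after adjustment over 3 shares). The shares add up to the whole in each library, so these are not separate tests. The test of the Hcn2 share was fixed by the pairs of Hcn2 with Hcn3 and Hcn4 above and adds no further evidence. With coding length the mean share of Hcn3 was 63.3% in bound and 40.0% in unbound libraries.

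The TRIP8b transcript was above the summed channel transcripts in every unbound library and below them in every bound library. The ratio of Pex5l to the summed Hcn2, Hcn3 and Hcn4 level per kilobase was 4.51, 3.80, 3.96 and 4.39 in unbound and 0.266, 0.209 and 0.200 in bound libraries. On the log2 scale the means were 2.06 ± 0.12 (SD, n = 4) and −2.16 ± 0.22 (SD, n = 3), and the exact permutation p was 0.0286. That p was likewise fixed by the separate levels of the members. The size of the ratio depends on the length used. Per kilobase of coding sequence it was 14.4, 12.3, 12.4 and 13.8 in unbound and 0.769, 0.595 and 0.578 in bound libraries, still above 1 in the former and below 1 in the latter.

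**Figure D2:**
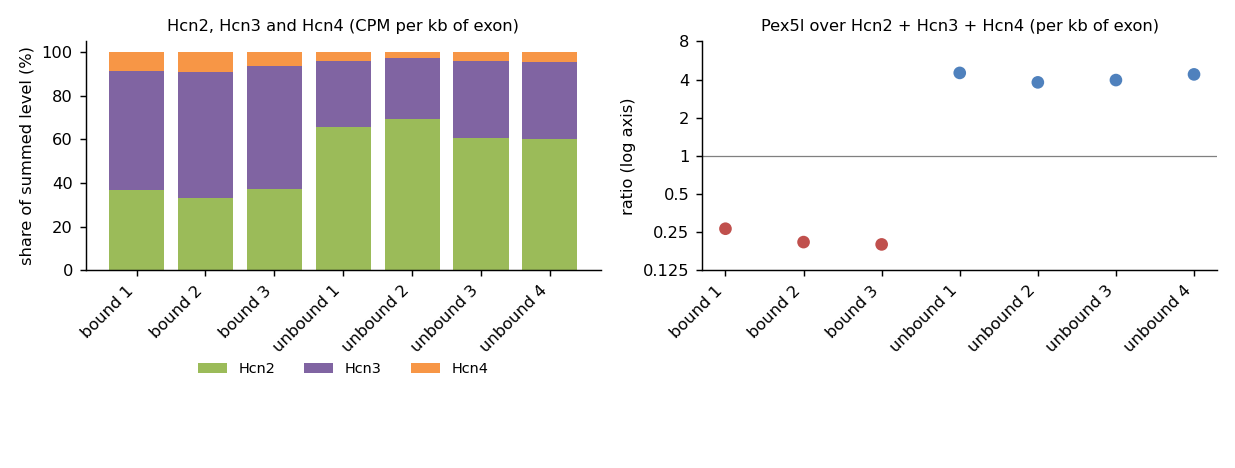
Left, share in percent of Hcn2, Hcn3 and Hcn4 in their summed level per kilobase of exon (y axis) in each library (x axis). Right, ratio of Pex5l to that sum on a log axis, red for bound and blue for unbound libraries, with a line at 1. The share of Hcn3 lies from 54.3% to 57.8% in bound and from 28.2% to 35.03% in unbound libraries, and the ratio lies below 1 in all bound and above 1 in all unbound libraries.

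Within the unbound group, none of the members passed the test between the title series. The 2 UBS libraries were set against the 2 UBGS libraries, and 0.229% of 19256 genes passed (edgeR adjusted p under 0.05). For UBS minus UBGS, the log2 difference was 0.08 (SE 0.16) for Hcn2, −0.34 (SE 0.16) for Hcn3, −0.57 (SE 0.35) for Hcn4 and −0.10 (SE 0.06) for Pex5l, with edgeR adjusted p-values of 0.828, 0.339, 0.447 and 0.453 and none with an unadjusted p under 0.05. DESeq2 called none of the 4 either. Unlike Gad2, which was higher in UBS (log2 0.71, edgeR adjusted p = 0.022), Hcn3 and Hcn4 had higher mean levels in UBGS. Set against UBS alone, Hcn4 stood at log2 3.21 (SE 0.32), and against UBGS alone at 2.65 (SE 0.23). Hcn3 stood at 2.82 (SE 0.16) and 2.499 (SE 0.13).

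The direction and the call of each member held under every other scaling, filter, test and left-out library tried. Scaling by library totals raised all values, to log2 1.44 for Hcn2, 3.07 for Hcn3, 3.32 for Hcn4 and −1.93 for Pex5l. In this comparison longer genes tend to have lower fold changes, and Pex5l is the longest of the 4, with 8846 bases of merged exon against 3195 for Hcn2, 4154 for Hcn3 and 6118 for Hcn4. Protein-coding genes of a length within 0.1 log10 units of a member had a median log2 fold change of 0.13 for Hcn2, −0.03 for Hcn3, −0.20 for Hcn4 and −0.36 for Pex5l. With the length trend taken out, the log2 fold changes were 1.08, 2.83, 3.23 and −1.89.

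**Figure D3:**
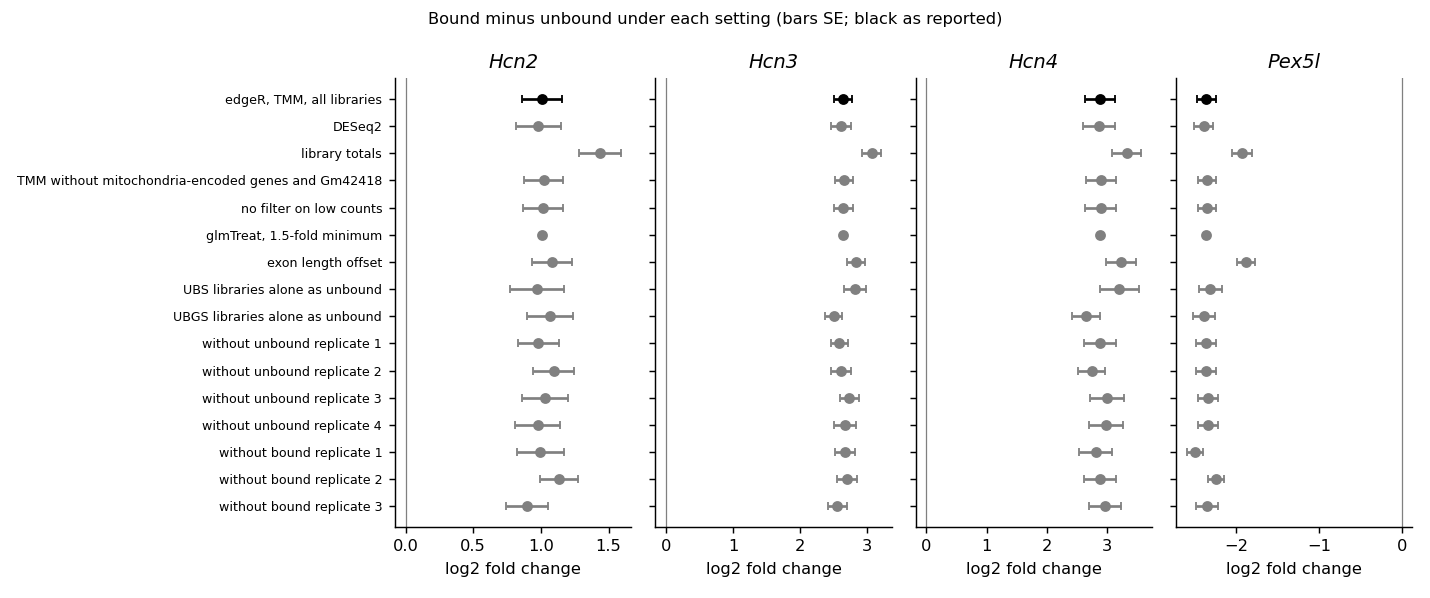
Log2 fold change of each member, bound minus unbound (x axis, a scale of its own in each panel), under each setting (y axis), with the SE as a bar, black for the reported fit and grey for the others. No SE is drawn for the test against a 1.5-fold minimum. Hcn2 lies from 0.90 to 1.44, Hcn3 from 2.499 to 3.07, Hcn4 from 2.65 to 3.32 and Pex5l from −2.501 to −1.89, and none reaches the line at 0.

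The genes whose profiles over the 7 libraries lay nearest to each member were found among 8590 protein-coding genes with a mean of at least 10 CPM, as the root mean square distance between log2 CPM values centred on each gene's mean. The group difference is part of each profile, so the distance includes any gap between fold changes. Nearest to Hcn2 were Bahcc1 (distance 0.069), Pknox2 (0.077) and Irf2bp1 (0.078 log2 units). Nearest to Hcn3 were Fxyd6 (0.115), a regulator of the sodium pump, Nxph1 (0.143), a secreted neurexin ligand, and Sp9 (0.152), a transcription factor of developing GABAergic neurons. Nearest to Hcn4 were Cacna2d2 (0.193), a calcium channel subunit, then again Sp9 (0.248) and Fxyd6 (0.249). Nearest to Pex5l were Ermn (0.083), a gene of myelinating oligodendrocytes, Ndst3 (0.088), an enzyme of heparan sulfate synthesis, and 2900026A02Rik (0.113). Ermn fell from 53.9 ± 2.12 CPM in unbound to 11.3 ± 1.87 CPM in bound libraries, close in proportion to Pex5l.

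Unlike the channel genes, genes for proteins that bind, move, modify or otherwise regulate HCN channels were more often lower than higher in bound libraries. Of 18 such genes, Pex5l among them, 12 were lower and 3 higher, beside 30.7% and 31% of all genes, with a median log2 fold change of −0.56 against −0.01 over all genes tested. Library totals moved the median of all genes to 0.43. The counts then became 8 lower and 6 higher, beside 18.9% and 47.5% of all genes. With the length trend taken out they were 9 lower and 3 higher (median −0.26), beside 25.9% and 34.3% of all genes. Magi2 turned from lower to higher in both settings. Pex5, the paralogue of Pex5l that imports proteins into peroxisomes, did not pass the test (6.83 ± 1.40 CPM against 6.50 ± 0.805 CPM, log2 0.07, SE 0.18, edgeR adjusted p = 0.763). Its log2 value was −0.11 without bound replicate 3, and with library totals it was 0.49 and passed (adjusted p = 0.0316). Of the ubiquitin ligase gene Nedd4l and the scaffold gene Grasp (tamalin), which binds HCN2, the log2 fold changes were −1.32 (SE 0.07) and −2.29 (SE 0.16). Vapa, which encodes an endoplasmic reticulum protein that binds HCN2, was higher (log2 0.55, SE 0.08), a call lost against a 1.5-fold minimum.

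Kcne2, a small potassium channel subunit that can join HCN channels and is abundant in the choroid plexus, had the lowest value of that list. It had 10, 0 and 2 counts in bound and 143, 273, 138 and 122 counts in unbound libraries (log2 −5.80, SE 0.68, edgeR adjusted p = 2.27e-05), with the log2 value at −7.59 without bound replicate 1 and −5.16 without bound replicate 2. Choroid plexus, ependymal and meningeal markers summed to 17.7 to 51.6 CPM in bound libraries, highest in bound replicate 1, and 1177 to 1881 CPM in unbound libraries, none of the 10 at 0 in all bound libraries. Their part in the level of Kcne2 was not tested. The highest value was that of Cav3, a caveolin that binds HCN4 in the heart, from 13, 17 and 52 counts in bound and 3, 1, 7 and 7 in unbound libraries (log2 2.27, SE 0.81, edgeR adjusted p = 0.0302). Its call was lost without bound replicate 3 (log2 1.12, adjusted p = 0.254) and in 6 further settings.

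The enzymes that set cAMP, the ligand of HCN channels, were called about as often as genes at large (31% higher and 30.7% lower). Of 9 adenylyl cyclase genes tested of 10, 3 were higher and 2 lower (median log2 fold change −0.16). Adcy1, a calcium-stimulated cyclase, was lower (234.8 ± 21.6 against 862.2 ± 107 CPM, log2 −1.88, SE 0.11, and −1.23 with the length trend taken out), as was Adcy9 (−1.79). Adcy5 (0.65) and Adcy7 (1.52) were higher, Adcy5 not against a 1.5-fold minimum. The value of Adcy7 was 0.996 against UBS alone and 2.35 against UBGS alone. Adcy7 is also known from microglia, whose markers were higher in bound libraries. Their part in its level was not tested. Of 15 cAMP phosphodiesterase genes tested of 16, 5 were higher and 6 lower (median −0.07). The gene left out, Pde2a, was not matched to a single gene ID of the count table. Pde3a was higher (18.5 ± 0.4996 against 2.72 ± 1.10 CPM, log2 2.75, SE 0.26). Its value was 3.35 against UBS alone, 2.36 against UBGS alone and 3.41 with the length trend taken out. Pde11a was higher too (0.98), and Pde1a (−2.42) and Pde8a (−2.16) were lower. With library totals, where 47.5% of all genes were higher and 18.9% lower, the cyclases became 4 higher and 2 lower and the phosphodiesterases 7 higher and 4 lower. With the length trend taken out, where 34.3% of all genes were higher and 25.9% lower, the phosphodiesterases became 8 higher and 4 lower.

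Of channel genes that share the cyclic nucleotide-binding fold with HCN, 2 were higher and 2 lower of 11 tested (median −0.39), no larger a share than the 31% and 30.7% of all genes, and 3 higher and 2 lower with library totals or with the length trend taken out. All 4 belonged to the KCNH potassium channels. Kcnh2, the ERG channel gene, was higher at 54.0 ± 7.67 against 11.5 ± 0.684 CPM (log2 2.23, SE 0.11). Kcnh6 was higher by 1.38 on the log2 scale (1.97 against UBS alone and 0.989 against UBGS alone). Kcnh3 and Kcnh7 were lower, at log2 −2.20 and −1.60, the latter −0.87 with the length trend taken out. The cyclic nucleotide-gated channel genes Cnga1, Cnga3 and Cngb3 had too few counts to be tested, and Cnga2, Cnga4 and Cngb1 did not pass the test.

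**Figure D4:**
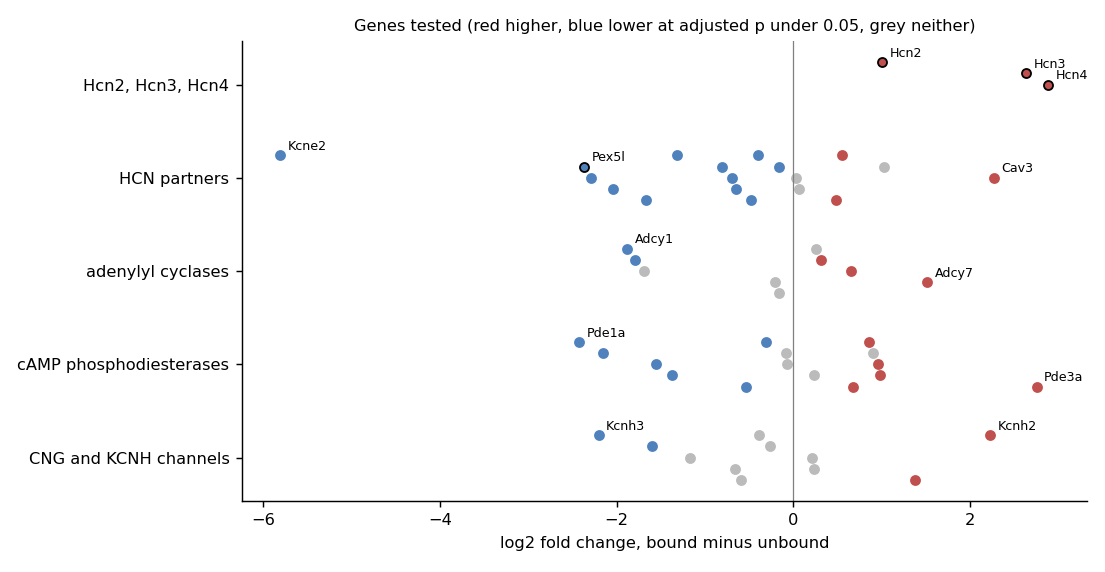
Log2 fold change, bound minus unbound (x axis), of each gene tested in the groups of genes named on the y axis, red for higher, blue for lower and grey for genes that did not pass (edgeR adjusted p under 0.05), with black rims for Hcn2, Hcn3, Hcn4 and Pex5l. The 3 channel genes lie at 1.01, 2.64 and 2.89, to the right of most of their partners, of which 12 of 18 are blue.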

How the data were processed

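The authors deposited raw counts of reads for each gene, obtained with STAR 2.5.3a and HTSeq (version not given) on mm10, per the submitters' processing notes. The sources used here do not state the annotation release, strand setting, read length or library kit. GENCODE M21, which uses the mm10 assembly, gave symbols for 37693 of the 39017 IDs, and the rest stayed in the tests. In R 4.3.3, edgeR 4.0.16 (filterByExpr, TMM, robust quasi-likelihood test, all genes, no block) compared 3 bound with 4 unbound libraries, and in a separate fit the UBS with the UBGS libraries. SE values came from the F statistic. Benjamini-Hochberg adjusted p-values under 0.05 over all genes tested were called, with no minimum fold. Alternatives included DESeq2 1.42.0, library totals, a length offset and leaving out each library. The test was also run on simulated data.

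The members and gene lists were chosen with earlier results of these data known. Named genes are the members, Gad2 and Slc17a7, Pex5, the 3 nearest profiles of each member, genes overlapping a member, and in each list the 2 highest and 2 lowest log2 fold changes past the threshold. Gad1 and Slc32a1, which the rule also names, were higher by 2.89 and 3.94 on the log2 scale. Nedd4l, Grasp and Magi2 fall outside that rule and were chosen after their values were seen. One gene that the rule also names is not reported here. No protein sequences were used here.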

Additional observations from a re-analysis of the deposited data

How the results depend on the processing

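No paired analysis was possible because the labels give the bound and unbound libraries no shared replicate numbers. For bound against unbound, each of the 4 members kept its direction and its call under all 15 alternatives. For the shares and the Pex5l ratio, the bound minus unbound difference kept its direction in all 10 alternatives and moved by less than the larger of the 2 groups' SDs, though at times by more than the smaller. It ran from −31.6 to −24.7 percentage points for Hcn2, 21.2 to 26.9 for Hcn3 and 3.51 to 4.97 for Hcn4, and from −4.36 to −4.14 for the log2 ratio. Leaving out each library in turn gave log2 0.90 to 1.13 for Hcn2, 2.55 to 2.74 for Hcn3, 2.75 to 2.999 for Hcn4 and −2.501 to −2.24 for Pex5l. Pex5 ran from −0.11, reversed without bound replicate 3, to 0.17. Over all genes, 6072 were called higher and 6004 lower. Library totals gave 9284 and 3704, and the 1.5-fold minimum 3246 and 3608.

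UBS against UBGS, 44 genes differed, 286 with DESeq2, 22 with library totals, 104 with no filter and 16 to 7389 with each library left out (4684, 7389, 16 and 19 without unbound replicates 1 to 4, the lone library of a series being assumed to vary like the others). Hcn2 then ran from −0.11 to 0.24, reversed without unbound replicate 2, and Hcn3 from −0.43 to −0.26, past the threshold without unbound replicate 2 (edgeR adjusted p = 0.033; up to 1 elsewhere). The cause was not tested. Depth limits Hcn4 most, with 27 to 48 counts per unbound library.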
